A study of Mus musculus with 32 samples.

Results

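The immunity-related GTPases (IRGs) examined here were 9 genes picked by symbol from the merged count table: Irgm1, Irgm2, Igtp, Iigp1, Gm12250, Tgtp1, Tgtp2, Ifi47 and Gm4951. All 9 were found, of 54532 gene identifiers (54429 symbols), and all 9 passed the filter on low counts. They were measured by bulk RNA-seq in Veravec cells, an established line of mouse lung endothelial cells (ECs), so the culture stands for 1 line rather than for vessels in an animal. The ECs were transfected with control siRNA (si-control) or siRNA to Dnmt1, the maintenance DNA methyltransferase (si-dnmt), in 2 rounds. The paper lists 2 Dnmt1 siRNA sequences and does not say whether they were pooled or which libraries received which. The cells were then left without cytokine or given TNF, IFN or TNF + IFN. TNF was TNFα at 10 ng/mL and IFN was IFNγ at 1000 U/mL, for 16 h, and the labels do not repeat the doses for the combination. The 8 groups held 4 biological replicates each, 32 libraries in all.

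IRGs are GTPases that IFNγ induces strongly in mouse cells, where they coat and disrupt the vacuoles around intracellular pathogens. Members with a methionine in the nucleotide-binding motif (GMS proteins: Irgm1, Irgm2 and Igtp, also called Irgm3) sit on the membranes of the cell itself and hold the other members inactive there. Members with a lysine at that position (GKS proteins, among them Iigp1 or Irga6, Tgtp1 and Tgtp2 or Irgb6, Ifi47 or Irgd, and Gm12250, which encodes IRGB10) load onto pathogen vacuoles. The genes are textbook targets of IFNγ signalling, in which IRF1 takes part.

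RefSeq promoters (build GRCm38.p6) were at hand for 7 of the 9 members, all of them on chromosome 11. Each covers 250 bases before and 50 bases after the gene's start. They are shown because the groups compared differ in IFN and TNF, whose transcription factors bind known short sites. Capitals mark matches, on either strand, to GAAANNGAA (core of the interferon-stimulated response element, ISRE), TTCNNNGAA (core of the gamma-activated site, GAS) or GGANTTTCC (a form of the NF-κB site). The 130 bases before each start are printed 5′ to 3′ on the strand of the gene, and no match lay elsewhere in these promoters. The stretches are chr11:48871421-48871550 (minus strand) for Irgm1, chr11:58214847-58214976 (plus) for Irgm2, chr11:58199426-58199555 (plus) for Igtp, chr11:58183713-58183842 (plus) for Gm12250, chr11:48992247-48992376 (minus) for Tgtp1, chr11:49064213-49064342 (minus) for Tgtp2 and chr11:49076457-49076586 (plus) for Ifi47.
Irgm1: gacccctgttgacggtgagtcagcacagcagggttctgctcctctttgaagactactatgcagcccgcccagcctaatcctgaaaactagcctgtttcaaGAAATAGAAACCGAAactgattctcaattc
Irgm2: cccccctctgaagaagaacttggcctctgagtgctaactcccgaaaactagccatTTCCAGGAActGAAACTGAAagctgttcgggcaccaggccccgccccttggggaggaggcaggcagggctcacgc
Igtp: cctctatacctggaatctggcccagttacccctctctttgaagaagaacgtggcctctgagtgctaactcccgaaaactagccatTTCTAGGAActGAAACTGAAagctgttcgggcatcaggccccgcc
Gm12250: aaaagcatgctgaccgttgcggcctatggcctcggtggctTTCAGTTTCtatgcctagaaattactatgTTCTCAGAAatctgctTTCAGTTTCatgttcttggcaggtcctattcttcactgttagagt
Tgtp1: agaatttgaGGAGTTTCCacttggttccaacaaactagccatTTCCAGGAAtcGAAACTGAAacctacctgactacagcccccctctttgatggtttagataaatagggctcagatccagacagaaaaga
Tgtp2: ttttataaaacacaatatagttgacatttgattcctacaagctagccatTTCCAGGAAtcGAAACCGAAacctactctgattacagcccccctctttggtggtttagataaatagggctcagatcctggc
Ifi47: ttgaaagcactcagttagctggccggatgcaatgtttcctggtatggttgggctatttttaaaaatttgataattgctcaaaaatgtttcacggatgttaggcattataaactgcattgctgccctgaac

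Irgm2, Igtp, Tgtp1 and Tgtp2 shared one layout, a GAS core whose first base lay 11 bases upstream of the first base of an ISRE core. The ISRE core began 64 bases before the start in Irgm2, 34 in Igtp, 77 in Tgtp1 and 70 in Tgtp2. Gm12250 held 2 ISRE cores on the opposite strand, at 90 and 45 bases before the start, with a GAS core between them at 61. Irgm1 held 2 ISRE cores, at 30 and 24, which overlap each other, and no GAS core. The only match to the NF-κB form was in Tgtp1, at 121. Ifi47 held none of the 3 motifs in this window. Of all 32851 promoters of the table, 8.56% held the ISRE core, 8.30% the GAS core and 1.25% the NF-κB form. CG dinucleotides, the bases that Dnmt1 keeps methylated, numbered 1 in Tgtp1, 2 in Tgtp2, 2 in Ifi47, 3 in Gm12250, 9 in Igtp, 9 in Irgm2 and 11 in Irgm1 over the 300 bases, against a median of 7 over all promoters (quartiles 3 and 20). Methylation was not measured. The start of the GENCODE M21 model, counted in bases downstream of the RefSeq start, was at 3896 for Gm12250, −15359 for Irgm2, −1926 for Tgtp1, −263 for Irgm1, 6 for Tgtp2 and 0 for Igtp and Ifi47. The printed promoters follow the RefSeq starts.

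Total counts ran from 17362546 to 33500030 per library (median 20859668). Dnmt1 measured 86.5 to 211 CPM (counts scaled to library size with TMM factors) in the 16 si-control libraries and 5.11 to 17.3 CPM in the 16 si-dnmt libraries, so each library followed its label. All 10 endothelial markers listed, among them Cdh5 and Pecam1, were above 1 CPM in every group mean. In si-control 3 of the 10 were called lower with TNF, 0 with IFN alone and 8 with TNF + IFN, and in si-dnmt 5, 0 and 9. Their part in the members' cytokine responses was not tested. Of 10 leukocyte markers, Lyz2 and Cd68 were above 1 CPM in every group and Csf1r in si-control + TNF, while Cd3e was at 0 in all libraries. In every group, replicates 1 and 2 stood apart from replicates 3 and 4 on principal components. The labels name no batch, so results that rest on this are also given within each set. A set holds 2 libraries per group, which lie close together on these components. Calls within a set therefore measure the spread inside that set only, not the spread between sets.

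The members were expressed in resting ECs and rose strongly with IFN. Levels between genes are compared as CPM per kb of exon (GENCODE M21 models). The model of Gm12250 is annotated as a processed pseudogene with 1 exon block of 1274 bases. It starts 3896 bases downstream of the RefSeq start, so the level of Gm12250 per kb is uncertain. In si-control without cytokine, Irgm1 was highest, at 36.5 ± 3.80 CPM per kb (SD, n = 4). Tgtp1 (18.5 ± 4.32), Irgm2 (17.5 ± 0.643), Iigp1 (16.7 ± 4.69), Igtp (15.2 ± 1.37) and Tgtp2 (12.9 ± 1.57) followed. From Tgtp1 down to Igtp each differed from the next by less than the larger SD of the pair, and Tgtp2 lay below Igtp by more than that. Ifi47 (7.95 ± 1.39), Gm4951 (2.29 ± 0.967) and Gm12250 (0.774 ± 0.579 CPM per kb) were lower, and Gm12250 rested on 6 to 39 counts per library. In si-control + IFN the order was different. Tgtp2 (900 ± 294), Igtp (862 ± 190) and Tgtp1 (727 ± 227 CPM per kb) led and overlapped within their SD. Iigp1 (407 ± 129) and Gm12250 (372 ± 85.7) came next, then Irgm1 (240.0 ± 60.9) and Irgm2 (217 ± 49.1), and Gm4951 (98.9 ± 28.7) and Ifi47 (75.9 ± 21.7 CPM per kb) were last. Within each of these pairs the difference was less than the larger SD.

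**Figure D1:**
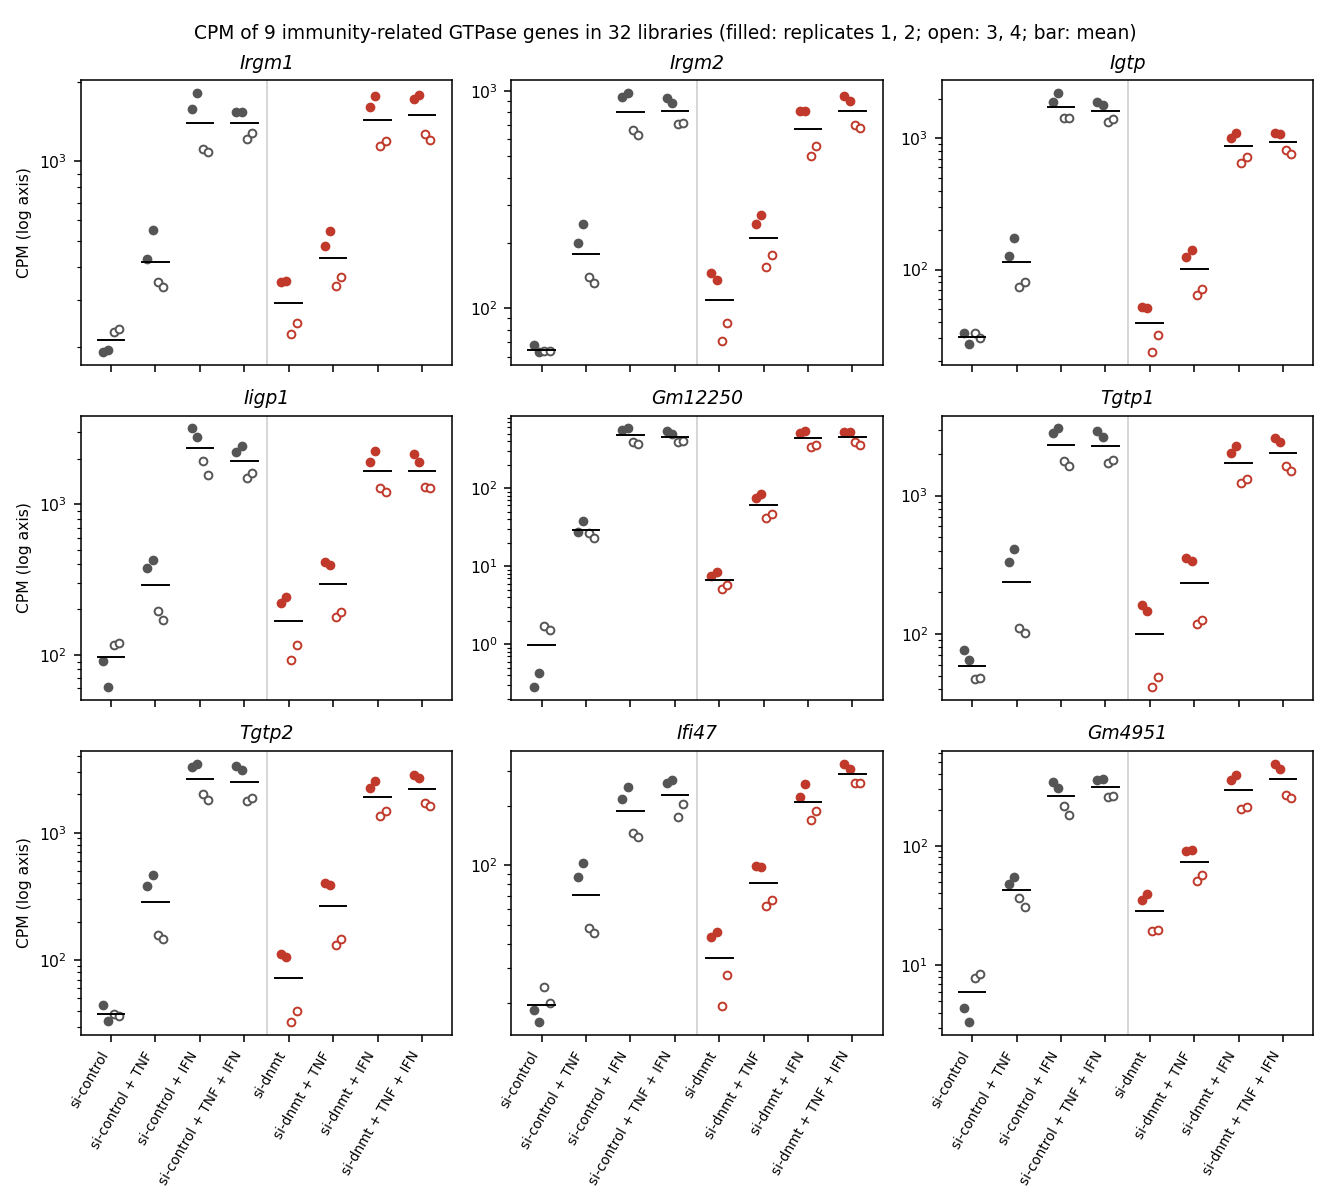
CPM (log axis) of the 9 IRG genes in each of the 32 libraries by group, with si-control in grey and si-dnmt in red, replicates 1 and 2 filled, replicates 3 and 4 open, and group means as bars. Every member is lowest without cytokine and far higher with IFN, the levels with IFN and with TNF + IFN lie close together, and open points lie on average below filled ones in the cytokine groups.

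Irgm1, the regulator with the highest resting level, averaged 212 ± 22.1 CPM (SD, n = 4) in si-control, 416 ± 98.0 with TNF, 1394 ± 354 with IFN and 1394 ± 170.1 with TNF + IFN. In si-dnmt it averaged 294 ± 68.8, 434 ± 97.6, 1428 ± 309 and 1494 ± 299 CPM in the same order. Thus si-control and si-dnmt gave like means for Irgm1 in the IFN groups. Iigp1, the best studied GKS effector, averaged 97.3 ± 27.3, 292 ± 128, 2372 ± 752 and 1947 ± 464 CPM in si-control and 168 ± 75.2, 295 ± 127, 1666 ± 512 and 1659 ± 435 CPM in si-dnmt. Tgtp1 averaged 59.2 ± 13.9, 238 ± 155, 2329 ± 729 and 2277 ± 598 CPM in si-control and 99.6 ± 63.4, 233 ± 128, 1720 ± 523 and 2043 ± 554 CPM in si-dnmt. For both genes the larger SD exceeded the difference between the siRNAs in every state. That SD includes the gap between the replicate sets, so it does not measure the spread of the siRNA difference within a set. The differences within each set are given with the siRNA comparisons below.

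The balance of the regulators to the other members shifted with the cytokines. The summed level per kb of the GMS genes (Irgm1, Irgm2 and Igtp) over that of the remaining 6 was 1.06, 1.28, 1.18 and 1.19 in si-control replicates 1 to 4. With TNF the ratio was 0.513, 0.546, 0.768 and 0.838, with IFN 0.457, 0.507, 0.533 and 0.590, and with TNF + IFN 0.470, 0.470, 0.566 and 0.564. Every cytokine library thus lay below every library without cytokine. In si-dnmt the ratio was 0.770, 0.753, 1.18 and 1.12 without cytokine, 0.469 to 0.703 with TNF, 0.404 to 0.457 with IFN and 0.381 to 0.447 with TNF + IFN. The ratio is a description of these libraries and was not tested. It includes the uncertain level of Gm12250 per kb.

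**Figure D2:**
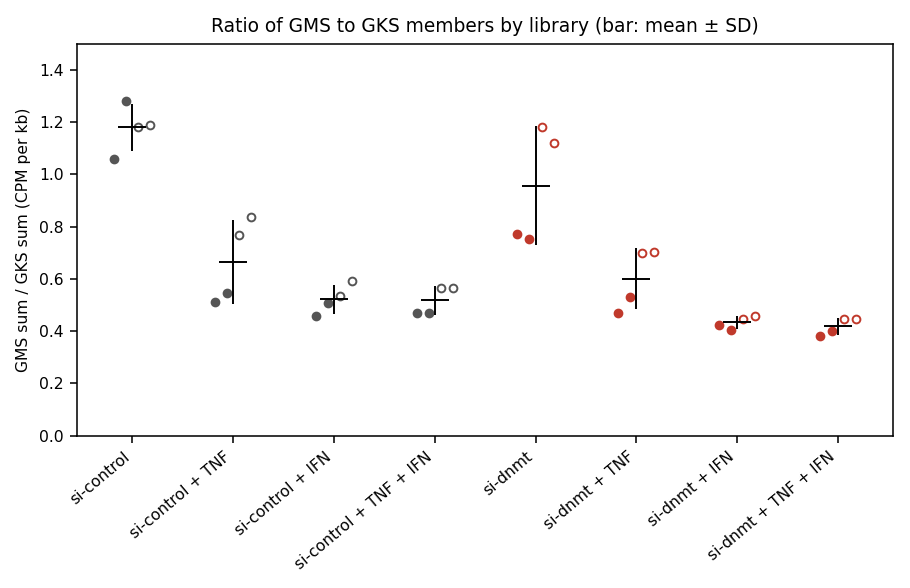
Ratio of the summed CPM per kb of the GMS genes to that of the other 6 members in each library, by group, with replicates 1 and 2 filled, 3 and 4 open, and mean ± SD in black. The mean falls from 1.18 in si-control to 0.666 with TNF and 0.522 with IFN, and from 0.957 in si-dnmt to 0.433 with IFN.

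The first comparison was each cytokine against none. TNF alone raised all 9 members in si-control, where 16.1% of the 15254 genes tested were called higher (adjusted p under 0.05). Their median log2 fold change was 1.89, against −0.0092 over all genes tested. Among the regulators, Irgm1, which guards host membranes, rose 0.97 ± 0.20 on the log2 scale (SE, adjusted p = 0.000512), Irgm2 rose 1.47 ± 0.23 (adjusted p = 1.92e-05) and Igtp rose 1.89 ± 0.28 (adjusted p = 9.06e-06). Among the others the rise was largest for Gm12250, which measured 0.282, 0.424, 1.71 and 1.53 CPM without cytokine and 27.6, 38.0, 26.5 and 23.1 CPM with TNF. The TNF libraries all lay far above the resting ones, and the log2 fold change was 4.83 ± 0.36 (28.4-fold, adjusted p = 4.22e-11). Tgtp2, a GKS effector, measured 44.1, 33.1, 37.8 and 36.5 CPM at rest and 380, 468, 156 and 146 CPM with TNF. All TNF libraries were higher, but replicates 1 and 2 responded more than replicates 3 and 4. The log2 fold change of Tgtp2 was 2.92 ± 0.45 (adjusted p = 1.17e-05). It was 3.47 within replicates 1 and 2 and 2.02 within replicates 3 and 4. Gm4951, an IRG-like gene, rose 2.81 ± 0.34 (adjusted p = 2.83e-07), Tgtp1 2.01 ± 0.46, Ifi47 1.85 ± 0.27 and Iigp1 1.59 ± 0.35. The TNF rise of all 9 was called within either replicate set, where 20.0% and 22.5% of all genes were called higher, with medians of 2.41 in replicates 1 and 2 and 1.16 in replicates 3 and 4.

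In si-dnmt, TNF raised 7 of the 9 members against the si-dnmt cells without cytokine, with 11.5% of all genes called higher. The median log2 fold change of the 9 was 1.26. Gm12250 rose 3.20 ± 0.30 (9.19-fold), Tgtp2 1.89 ± 0.43, Gm4951 1.36 ± 0.31, Igtp 1.35 ± 0.28 and Irgm1 0.56 ± 0.20 (adjusted p = 0.0451). Iigp1 (0.81 ± 0.35, adjusted p = 0.101) and Tgtp1 (1.23 ± 0.45, adjusted p = 0.0504) did not pass the test. Both were called with the replicate number as a block, at adjusted p = 0.00577 and 1.51e-05. The call of Irgm1 was lost without si-dnmt + TNF replicate 1 or 2 or si-dnmt replicate 3 or 4, and Tgtp1 was called without si-dnmt + TNF replicate 3 or 4 or si-dnmt replicate 1 or 2 (leaving out single libraries gave 0.43 to 0.67 and 0.96 to 1.57).

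IFN raised all 9 members under either siRNA, with 8.56% of all genes called higher in si-control and 6.66% in si-dnmt. In si-control the median log2 fold change of the 9 was 5.30, and in si-dnmt it was 3.36. Of the regulators, Igtp rose from 33.0, 27.3, 33.1 and 30.0 CPM to 1908, 2208, 1418 and 1436 CPM in si-control (5.82 ± 0.34, 56.5-fold, adjusted p = 8.77e-14). Irgm2 rose 12.4-fold and Irgm1, the member with the highest resting level, 6.58-fold (2.72 ± 0.21). Of the others, Gm12250 rose from near 1 CPM to 551, 583, 395 and 366 CPM. This was the largest rise of the 9 members, at a log2 fold change of 8.87 ± 0.40 (467-fold, adjusted p = 4.77e-16). Within replicates 1 and 2 it was 10.67 and within replicates 3 and 4 it was 7.87. Its mean level in replicates 1 and 2 was 0.218 of that in replicates 3 and 4 at rest and 1.49 times it with IFN. Tgtp2 rose 69.8-fold, Gm4951 43.0-fold, Tgtp1 39.4-fold, Iigp1 24.4-fold and Ifi47 9.54-fold. In si-dnmt the rises ran from 4.86-fold (Irgm1) to 65.3-fold (Gm12250).

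TNF + IFN against none called all 9 members higher too, with 23.5% of all genes higher in si-control and 21.3% in si-dnmt. Their median log2 fold change was 5.27 in si-control and 3.66 in si-dnmt, against 5.30 and 3.36 with IFN alone. Gm12250 again had the largest rise, 452-fold in si-control and 67.2-fold in si-dnmt, and Irgm1 the smallest, 6.58-fold and 5.08-fold. These comparisons share the resting libraries with those of IFN alone.

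**Figure D3:**
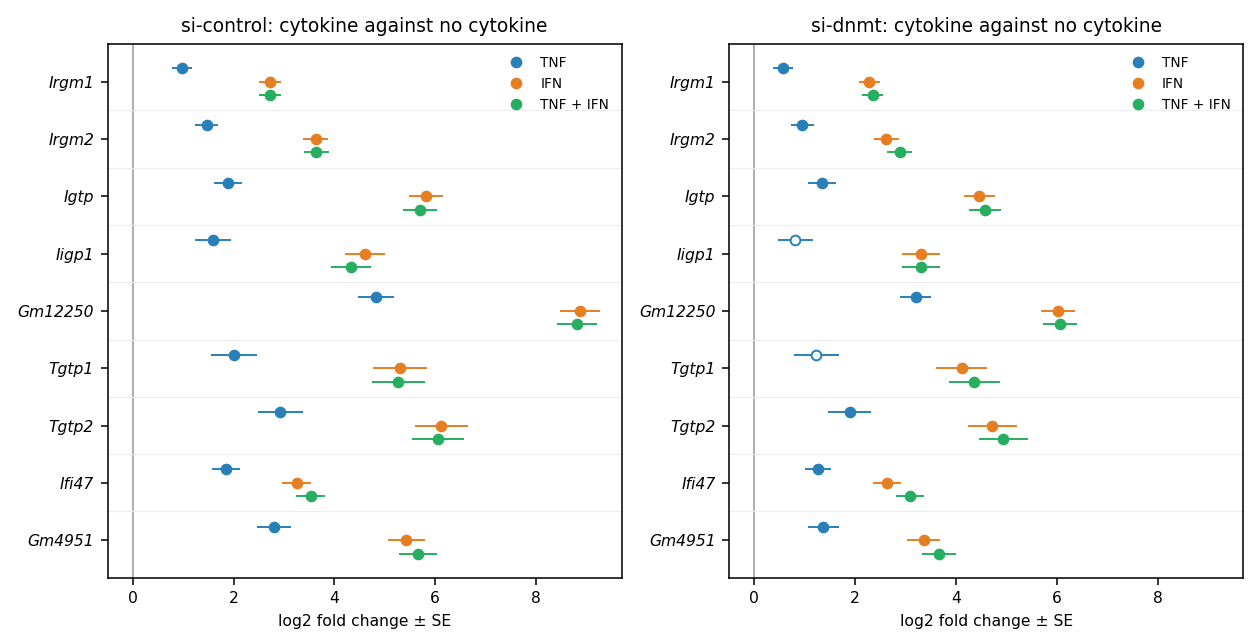
Log2 fold change ± SE of each member with TNF, IFN or TNF + IFN against no cytokine in si-control (left) and si-dnmt (right), filled where called by edgeR at an adjusted p under 0.05. TNF gives 0.97 to 4.83 in si-control, IFN and TNF + IFN give 2.72 to 8.87, and Iigp1 and Tgtp1 with TNF in si-dnmt are the open points.

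Whether TNF adds to IFN was asked directly by setting TNF + IFN against IFN. None of the 9 members was called in si-control, where 15.6% of all genes were called higher, and 0 had an unadjusted p under 0.05 in edgeR. The median log2 difference of the 9 was −0.03, with a range of −0.28 to 0.28. Igtp, for example, measured 1888, 1782, 1326 and 1416 CPM with TNF + IFN and 1908, 2208, 1418 and 1436 CPM with IFN, so the groups overlapped. In si-dnmt 0 members were called, again with 0 at an unadjusted p under 0.05, against 12.4% of all genes higher, and the median was 0.22 (−0.01 to 0.46). DESeq2 likewise called 0 under either siRNA. With the replicate number as a block, which called 18.3% of all genes higher in si-dnmt, 2 members were called there, Irgm2 (0.28, adjusted p = 0.0432) and Ifi47 (0.48, adjusted p = 0.0226). Ifi47 measured 328, 306, 262 and 261 CPM in si-dnmt + TNF + IFN and 223, 258, 169 and 189 CPM in si-dnmt + IFN, with every combined library above every IFN library.

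The TNF-by-IFN interaction asks whether the fold of the combination equals the product of the single folds. It was negative for all 9 members under either siRNA. In si-control 6 of the 9 were called lower than the product, where 0.642% of all genes were. The median of the 9 was −2.01, against −0.00433 over all genes. Of the regulators, Igtp had a log2 interaction of −2.01 ± 0.39 (adjusted p = 0.0043) and Irgm2 of −1.45 ± 0.32 (adjusted p = 0.0164), while Irgm1 (−0.98 ± 0.28, adjusted p = 0.111) did not pass the test. Of the others, the terms of Gm12250 (−4.88 ± 0.45, adjusted p = 1.07e-07), Tgtp2 (−3.00 ± 0.60, adjusted p = 0.00573), Gm4951 (−2.57 ± 0.45, adjusted p = 0.00137) and Ifi47 (−1.57 ± 0.37, adjusted p = 0.0266) passed. Iigp1 (−1.87 ± 0.49, adjusted p = 0.0641) and Tgtp1 (−2.04 ± 0.63, adjusted p = 0.143) did not. All 9 were called by DESeq2 (1.17% of all genes lower), with the block (2.27%), in replicates 1 and 2 alone (6.14%) and in replicates 3 and 4 alone (2.55%). The median was −2.51 and −1.10 within the sets. The call of Irgm2 was lost without si-control + TNF replicate 2 (−1.27). The call of Ifi47 was lost without replicate 1 or 2 of si-control, si-control + TNF or si-control + IFN, or replicate 3 or 4 of si-control + TNF + IFN (−1.54 to −1.34). Iigp1 passed once replicate 4 of si-control + IFN, or replicate 3 or 4 of si-control + TNF, was left out (−2.06 to −2.02).

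In si-dnmt the interaction was called for Gm12250 (−3.16 ± 0.40, adjusted p = 3.9e-05), where 0.177% of all genes were called lower. The median of the 9 was −0.98. With the block, which called 1.04% of all genes lower, 5 members passed: Gm12250, Igtp (−1.21), Tgtp2 (−1.68), Irgm2 (−0.69) and Gm4951 (−1.07). The difference of the 2 interactions, the three-way term, was called for 0.0% of all genes and for 0 of the 9, 2 of which had an unadjusted p under 0.05 in edgeR, and DESeq2 called 0 of the 9. Its median over the 9 was 1.06. Within replicates 1 and 2 alone all 9 were called for this term, with 0.638% of all genes, and the median was 1.56. Within replicates 3 and 4 edgeR called 0 of the 9 and 0.0593% of all genes, 2 members had an unadjusted p under 0.05, and the median was 0.229.

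On the linear scale, the rise in CPM with TNF + IFN was divided by the sum of the rises with TNF and with IFN. A ratio of 1 means that the rises add. If TNF adds nothing to IFN the ratio is the IFN rise over that same sum (0.766 to 0.954 for the 9 members in si-control). In si-control the median ratio over the 9 was 0.876, and the value for no addition was 0.913. Taken within replicate numbers 1 to 4 the median was 0.911, 0.781, 0.940 and 1.05, a range that held 1. The value for no addition was taken over all replicates together and not within numbers. The range over numbers therefore cannot be set against it, and the ratio is not read as addition or no addition there. For Irgm1 the ratio was 0.852 and the value for no addition 0.853. Iigp1 had the lowest ratio in si-control (0.749, 0.630 to 0.998 over the numbers, 0.921 for no addition) and Gm4951 the highest (1.03, 0.911 to 1.29, 0.875 for no addition). In si-dnmt the median was 1.05, with 1.05, 0.943, 1.18 and 1.00 within the numbers, and the value for no addition was 0.890. The si-dnmt ratios ran from 0.914 (Gm12250, 0.887 for no addition) to 1.14 (Ifi47, 0.788 for no addition). These ratios were not tested.

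**Figure D4:**
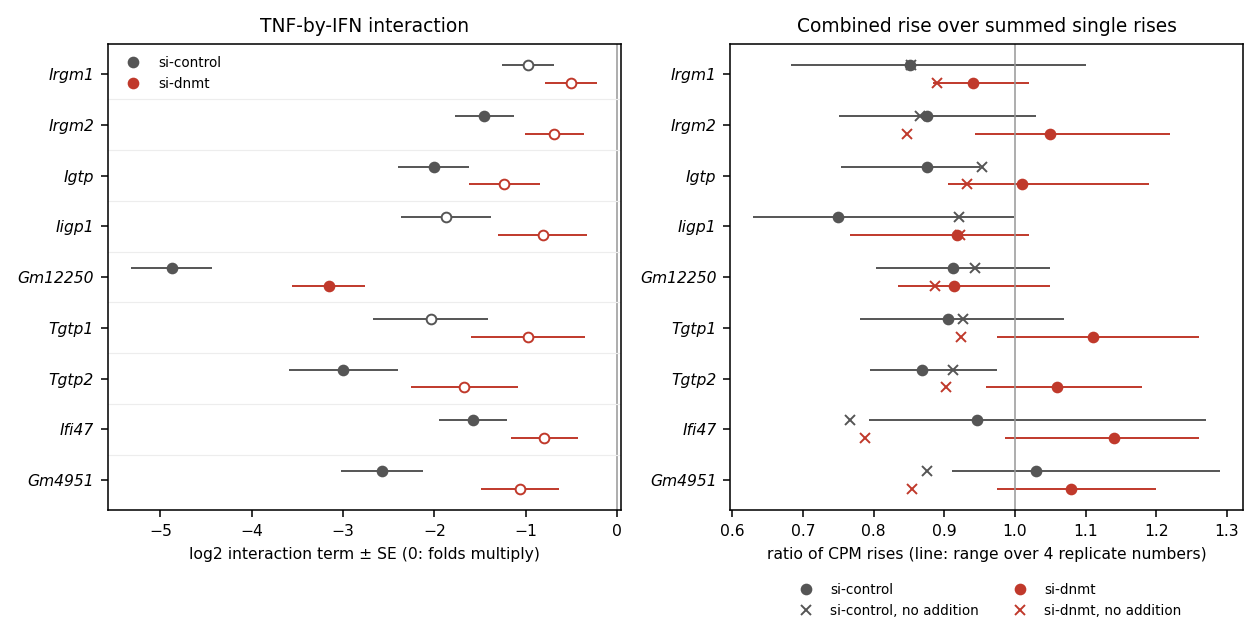
Left, the TNF-by-IFN interaction of each member on the log2 scale ± SE in si-control (grey) and si-dnmt (red), filled where called, with 0 meaning that folds multiply. Right, the combined rise in CPM over the sum of the single rises, with lines for the range over the 4 replicate numbers. Crosses give the ratio, over all replicates together, if TNF added nothing to IFN. All interactions lie below 0, from −4.88 to −0.50, and the linear ratios run from 0.749 to 1.14, beside values for no addition of 0.766 to 0.954.

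The next comparison was the siRNA, the question being how loss of Dnmt1 alters the members before and under the cytokines. Without cytokine, si-dnmt raised 4 of the 9 members, where 9.58% of all genes were called higher. The median of the 9 was 0.79, against −0.00493 over all genes. It was 1.38 in replicates 1 and 2 and 0.023 in replicates 3 and 4. Gm12250 measured 7.57, 8.38, 5.05 and 5.80 CPM in si-dnmt, and all of these lay above the 0.282 to 1.71 CPM of si-control. Its log2 fold change was 2.72 ± 0.36 (6.60-fold, adjusted p = 3.49e-06), with 4.50 in replicates 1 and 2 and 1.74 in replicates 3 and 4. Gm4951 measured 4.41, 3.34, 7.91 and 8.52 CPM in si-control and 34.98, 39.3, 19.3 and 19.9 CPM in si-dnmt. Its groups did not overlap either, and its log2 fold change was 2.22 ± 0.33 (4.66-fold, adjusted p = 2.11e-05), called within either set (3.26 and 1.25).

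Irgm2, a GMS regulator, measured 68.2, 63.1, 63.5 and 64.0 CPM in si-control and 146, 135, 71.1 and 85.4 CPM in si-dnmt (0.76 ± 0.23, adjusted p = 0.0201). Replicates 1 and 2 rose by 1.10 and replicates 3 and 4 by 0.29, and its call was lost without si-dnmt replicate 1 or 2 (0.58 to 0.64). Ifi47 measured 18.4, 16.0, 24.1 and 20.1 CPM in si-control and 43.3, 45.7, 19.4 and 27.7 CPM in si-dnmt, so its groups overlapped through replicates 3 and 4. Its log2 fold change was 0.79 ± 0.27 (adjusted p = 0.0376), with 1.38 in replicates 1 and 2 and 0.09 in replicates 3 and 4 (adjusted p = 0.631). This call did not survive leaving out replicate 1 or 2 of either group, or replicate 4 of si-control (0.61 to 0.80). The other members had log2 fold changes of 0.35 (Igtp) to 0.93 (Tgtp2) and did not pass. Among them Tgtp1, Tgtp2, Iigp1 and Igtp were at 1.14, 1.49, 1.61 and 0.77 in replicates 1 and 2 but at −0.09, −0.04, −0.18 and −0.19 in replicates 3 and 4. All 9 members were called higher within replicates 1 and 2 alone, where 13.1% of all genes were. Within replicates 3 and 4 it was 3 (Irgm2, Gm12250 and Gm4951), where 17.7% of all genes were. With the block, which called 16.6% of all genes higher, 8 members were called and Igtp was not. Dnmt1 itself was lowered more in replicates 3 and 4 (−4.54) than in replicates 1 and 2 (−2.97), and its part in these values was not tested.

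With TNF, 1 member was called higher in si-dnmt, against 10.4% of all genes. This was Gm12250, at 73.8, 83.3, 41.6 and 46.8 CPM against 27.6, 38.0, 26.5 and 23.1 CPM (1.09 ± 0.28, 2.13-fold, adjusted p = 0.00544). Every si-dnmt library lay above every si-control library, and the rise was 1.26 and 0.83 within the sets. With the block, which called 17.2% of all genes higher, Gm4951 was called too (0.76, adjusted p = 0.00432), where edgeR without the block gave 0.78 ± 0.31 (adjusted p = 0.0735). The median of the 9 was 0.06.

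With IFN the sign was mixed, and 1 member was called lower, against 9.54% of all genes. Igtp measured 1004, 1103, 653 and 721 CPM in si-dnmt + IFN, against 1908, 2208, 1418 and 1436 CPM in si-control + IFN. The groups did not overlap, and the log2 fold change was −1.002 ± 0.27 (adjusted p = 0.00944), with −0.98 and −1.05 within the sets. The other 8 lay between −0.51 (Iigp1) and 0.16 (Ifi47) and did not pass. Among these, Iigp1, Tgtp1, Tgtp2, Irgm2 and Gm12250 were lower in si-dnmt for 4 of 4 replicate numbers. Iigp1, Tgtp1 and Tgtp2 were called lower within replicates 1 and 2 (−0.53, −0.46 and −0.51), where 12.6% of all genes were. They were called lower within replicates 3 and 4 too (−0.495, −0.415 and −0.43), where 20.0% of all genes were. Irgm2 was called lower within replicates 3 and 4 (−0.28) and not within replicates 1 and 2 (−0.25), and Gm12250 within neither. With the block Iigp1, Tgtp1 and Tgtp2 did not pass (adjusted p = 0.0789, 0.0935 and 0.0679 in edgeR), nor did Irgm2 or Gm12250. With TNF + IFN, 0 members were called in edgeR, where 8.72% of all genes were called lower, and 1 had an unadjusted p under 0.05. This was Igtp, at 1105, 1086, 820 and 760 CPM in si-dnmt and 1888, 1782, 1326 and 1416 CPM in si-control (−0.77 ± 0.27, adjusted p = 0.0507). DESeq2 called it, as did the fit to these groups alone and the block (−0.77, adjusted p = 0.000157), which called 15.6% of all genes lower. No library of si-dnmt + TNF + IFN reached the lowest of si-control + TNF + IFN. Without cytokine the log2 fold change of Igtp was 0.35 ± 0.28.

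**Figure D5:**
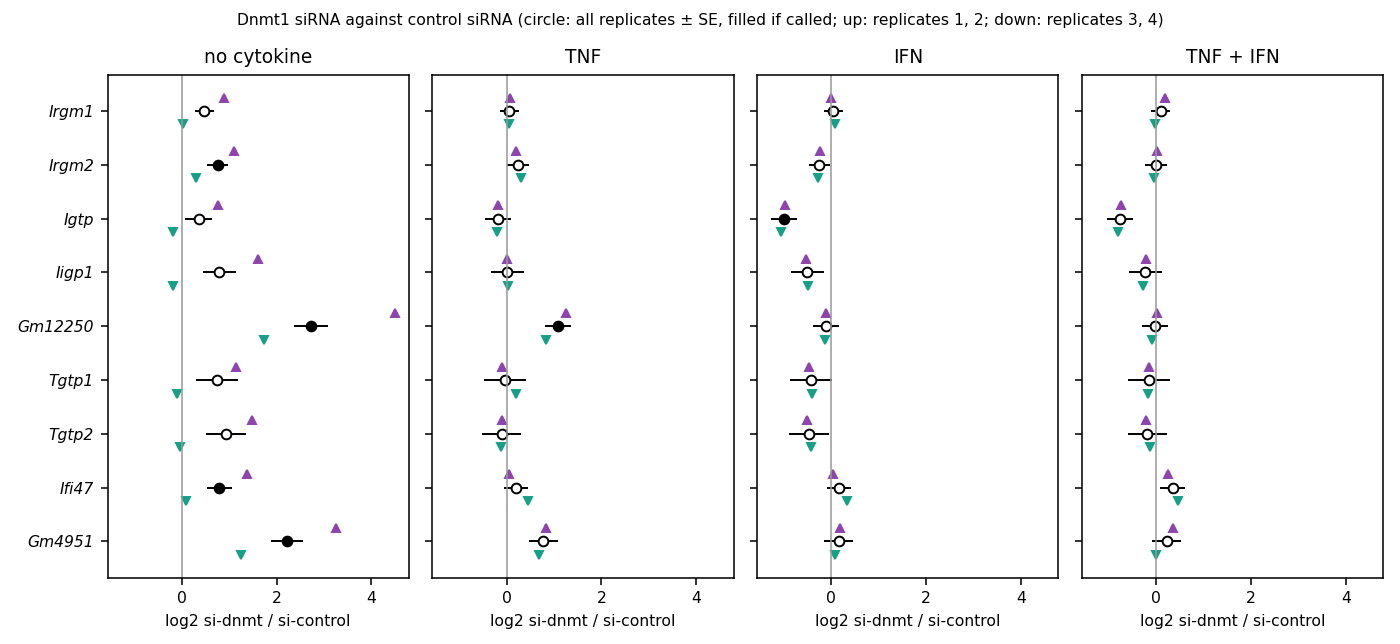
Log2 fold change of si-dnmt over si-control for each member in the 4 cytokine states, over all replicates ± SE (circles, filled where called), in replicates 1 and 2 alone (triangles up) and in replicates 3 and 4 alone (triangles down). Gm12250 at 2.72 and Gm4951 at 2.22 stand out without cytokine, the sets differ most in that state, and Igtp at −1.002 is the filled point with IFN.

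Whether the cytokine response itself differed between the siRNAs was tested by interactions. For TNF, 0 of the 9 members and 0.0262% of all genes were called lower by edgeR, although 2 members had an unadjusted p under 0.05 and DESeq2 called 1. The median of the 9 was −0.78, with −1.33 in replicates 1 and 2 and 0.0017 in replicates 3 and 4. Within replicates 1 and 2 alone all 9 were called lower, against 1.55% of all genes. Within replicates 3 and 4 Gm12250 and Gm4951 were, against 4.78% of all genes, while 5 members had terms above 0 there, up to 0.37 for Ifi47, and did not pass. With the block, which called 0.557% of all genes lower, Gm12250 (−1.60) and Gm4951 (−1.32) were called. For IFN, Gm12250 was called (−2.84 ± 0.45, adjusted p = 0.0029), where 0.0459% of all genes were called lower. The median of the 9 for IFN was −1.30, with −1.75 and −0.39 within the sets, and for TNF + IFN it was −1.02, with −1.52 and −0.095. The call of Gm12250 for IFN was not made when these 4 groups were fitted alone (adjusted p = 0.0711). Igtp, Irgm2 and Gm4951 were called in addition with the block (−1.27, −0.94 and −1.94, 0.367% of all genes lower). Without the block, Gm4951 was also called when si-control replicate 4 or si-dnmt replicate 3 was left out (−2.29 to −2.21). For TNF + IFN, Gm12250 (−2.75 ± 0.45, adjusted p = 0.00202) and Gm4951 (−1.998 ± 0.44, adjusted p = 0.0298) were called, against 0.374% of all genes lower. The call of Gm4951 was lost without replicate 1 or 2 of si-control, si-dnmt or si-control + TNF + IFN, or replicate 3 or 4 of si-dnmt + TNF + IFN (−1.93 to −1.80). The block called 4, adding Igtp and Irgm2, with 2.57% of all genes lower. In absolute level, Gm12250 with IFN was 508, 546, 334 and 359 CPM in si-dnmt and 551, 583, 395 and 366 CPM in si-control, so the groups overlapped while the resting groups did not.

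The size of the induced level also differed between the replicate sets. On average, replicates 1 and 2 lay above replicates 3 and 4 for all 9 members in every cytokine group, by 1.21-fold (Ifi47 in si-dnmt + TNF + IFN) to 3.47-fold (Tgtp1 in si-control + TNF). Without cytokine in si-control, Gm12250 in replicates 1 and 2 was at 0.218 and Gm4951 at 0.472 of the level of replicates 3 and 4. Irgm1 (0.835), Iigp1 (0.645) and Ifi47 (0.778) were below 1 as well. In si-control these members were thus lower at rest and higher with cytokine in replicates 1 and 2. Igtp was at 0.955 at rest, but its sets overlapped (33.0 and 27.3 against 33.1 and 30.0 CPM). In si-dnmt without cytokine all 9 were higher in replicates 1 and 2, by 1.47-fold (Gm12250) to 3.42-fold (Tgtp1).

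Some counts cannot be separated between neighbours. Of the 50-base words in the GENCODE M21 transcripts of Tgtp1, 79.4% also occur in those of Tgtp2, and 85.8% the other way round, so the split of reads between them is uncertain. Tgtp1 over Tgtp2 in CPM was 1.22 to 1.96 without cytokine and 0.701 to 0.980 in the cytokine groups. Igtp shares 11.8% of its words with Irgm2 and 162 exon bases on the same strand, and Tgtp1 shares 223 exon bases with Gm12185. Ifi47 shares 111 exon bases with Olfr56 on the same strand and 106 with Gm12188 on the opposite strand. Iigp1 and Gm4951, the members on chromosome 18, share 1.47% and 3.35% of their words. The strand setting of the counting is not given in the sources used here.

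Other genes of the pathway were read from lists. In si-control, 8.56% of all genes were called higher with IFN and 16.1% with TNF. The TNF-by-IFN interaction there was called lower for 0.642%. Against si-control, si-dnmt had 9.58% called higher without cytokine and 9.54% called lower with IFN. The guanylate-binding proteins (GBPs), large GTPases that act beside the IRGs, all rose with IFN in si-control (11 of 11, median log2 fold change 6.49), led by Gbp11 (9.51 ± 0.71) and Gbp10 (8.30 ± 0.39). With TNF 10 of 11 rose, and the TNF-by-IFN interaction was called lower for 8 of 11, with Gbp10 at −3.38 ± 0.43. Without cytokine si-dnmt raised 6 of 11 GBPs, led by Gbp5 (1.43 ± 0.29), and with IFN it lowered 4 of 11, led by Gbp6 (−0.997 ± 0.26). Among 8 tested genes of other IRG-like and very large inducible GTPases, 7 rose with TNF and 7 with IFN, with Gm4841 at 3.30 ± 0.53 and 8.11 ± 0.51, and 1, Irgq, fell with IFN (−0.54 ± 0.11). Without cytokine si-dnmt raised 4 of these 8, led by Gm4841 (2.12 ± 0.57).

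The shares of all genes given with the GBPs hold for the next lists too. Of 16 genes of the IFNγ receptor, JAK-STAT and IRF list, 11 rose and 1 fell with IFN in si-control. The transcription factor Irf1 rose 4.397 ± 0.16 and the inhibitor of JAK signalling Socs1 rose 4.91 ± 0.30. With TNF alone 9 rose and 1 fell, with rises of Irf1 (2.02 ± 0.15) and Ifngr1, a chain of the IFNγ receptor (1.68 ± 0.11). The TNF-by-IFN interaction was called lower for Irf1 (−1.50 ± 0.20, adjusted p = 4.21e-05). Without cytokine si-dnmt raised 8 of the 16 and lowered 1, with Irf1 at 0.51 ± 0.14. Irf1 was not called without si-control replicate 4 or si-dnmt replicate 1 (0.40 to 0.41). Of 19 genes of the TNF receptor and NF-κB list, 14 rose and 1 fell with TNF in si-control, led by Tnfaip3 (2.64 ± 0.18), with Nfkbia at 1.43 ± 0.22 and Nfkb1 at 0.31 ± 0.07. The interaction was called for 0 of these 19. ATG8 conjugation helps to place IRGs on vacuoles. Of 15 genes listed for ATG8 conjugation and IRG loading, 3 rose with IFN in si-control. They were Trim21 (1.82 ± 0.25), Gabarapl1 (0.37 ± 0.13) and Atg3 (0.35 ± 0.10). Of 19 interferon genes 1, Ifnb1, could be tested. It had a log2 fold change of 1.74 ± 0.94 with TNF (adjusted p = 0.170) in si-control. Ifnb1 was called higher with TNF in si-dnmt (2.33), with TNF + IFN against none (4.94 in si-control, 4.41 in si-dnmt) and with TNF + IFN against IFN (3.30 and 3.27). Its mean reached 1 CPM only in the TNF + IFN groups. All 19 interferon genes summed to 0.106 to 0.328 CPM in si-control and 0.514 to 0.554 CPM in si-dnmt + TNF. The folds of Ifnb1 therefore rest on counts near 0. Ifng was at 0 in every library.

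The 5 other genes most like the IRG family over the 8 group means of log2 CPM were Gm12185 (Pearson r = 0.999), Serpina3f (0.999), Gbp4 (0.998), BC023105 (0.998) and F830016B08Rik (0.997). Each r is a description over 8 group means that share libraries and depth. The members' own r with the mean profile ran from 0.981 (Gm4951) to 0.999 (Irgm2). Gm12185 overlaps Tgtp1, as given above.

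Of markers for other cells, some of the mesenchymal and mural ones were higher in si-dnmt. The summed level over the 10 genes was 7.95 to 28.4 CPM in si-control and 40.2 to 189 CPM in si-dnmt without cytokine. Of the 5 tested, Myh11 and Acta2 were called higher, against 9.58% of all genes. The mean of Myh11 was below 1 CPM in every group, so its call rests on low counts. With TNF 2 of the 5 were called higher, with IFN 1 and with TNF + IFN 0. These siRNA comparisons called 17.7% to 20.3% of all genes in either direction. With IFN the sums were 21.2 to 70.6 and 84.5 to 233 CPM. Acta2 was above 1 CPM in every group. Lum was at 0 without cytokine under either siRNA. The leukocyte markers summed to 191 to 228 CPM in si-control and 140 to 187 CPM in si-dnmt without cytokine, and the epithelial markers to 2.39 to 4.79 and 3.12 to 7.41 CPM, with Sftpc at 0 in both. Their part in the siRNA results was not tested. In bulk RNA, more cells of a type and more RNA per cell cannot be told apart.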

How the data were processed

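The authors deposited whole counts per gene, made with featureCounts from reads trimmed with cutadapt 4.9 according to the submitters' processing notes, as 1 table per library and 1 table merged by symbol. The sources used here give no aligner, genome build, annotation or strand setting. The merged table equalled the per-library tables summed by symbol, with 0 cells differing. The members and gene lists were chosen with earlier results of these data known. Genes were kept by edgeR's filterByExpr (minimum count 10), which left 15254. All 32 libraries were fitted in 1 model of 8 group means with edgeR 4.0.16 (R 4.3.3, TMM factors 0.880 to 1.09), and each of 18 contrasts was tested by its quasi-likelihood F test (two-sided), with p-values adjusted over all genes tested after Benjamini and Hochberg. Genes with an adjusted p under 0.05 were called. SE was the absolute log2 fold change over the square root of F. The test was tried before use on simulated counts with known changes, for si-control with IFN against none. The simulated libraries were independent, with no replicate sets, and no interaction was simulated. The trial therefore does not bear on error rates in those cases. Text values of CPM are counts scaled with the TMM factors. All 9 members were named, with Dnmt1, Irf1, Nfkb1, Nfkbia, up to 4 of the largest called genes of each list, and the 5 genes most alike in profile. One gene that this rule names is not reported here.

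Replicates carry the numbers 1 to 4 in every group's labels. Deviations from group means correlated at over 0.1 in all 112 pairs of libraries with the same number (lowest 0.297, median 0.415), so the numbers were taken to pair the samples and a fit with the number as a block was an alternative. The other number of the same set (1 and 2, or 3 and 4) correlated at a median of 0.409, and the same number was the best match in 70 of 112 cases, so the pairing may be one of sets. If so, the 4 replicates of a group may count for fewer than 4 independent ones, in every fit. Other alternatives were DESeq2 1.42.0, median-ratio size factors, no filter on low counts, the groups of a contrast fitted alone, each replicate set alone, each library left out, and the merged table. Gene lengths and overlaps came from GENCODE M21 and promoters from RefSeq (GRCm38.p6). Protein sequences were not analysed here.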

Additional observations from a re-analysis of the deposited data

Results flagged for a closer look

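The 6 members whose TNF-by-IFN interaction in si-control passed edgeR's test had log2 terms of −1.45 (Irgm2), −2.01 (Igtp), −4.88 (Gm12250), −3.00 (Tgtp2), −1.57 (Ifi47) and −2.57 (Gm4951), which means that the fold with TNF differed between cells with and without IFN. In si-dnmt the term of Gm12250 was −3.16. The response of Gm12250 differed between the siRNAs by −2.84 with IFN and by −2.75 with TNF + IFN, and that of Gm4951 by −1.998 with TNF + IFN. Gm12250 rested on 6 to 39 counts per library in si-control without cytokine, the group that enters each of its terms in si-control.

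Among 72 sets of 4 libraries (9 genes in 8 groups), 1 library stood apart from the other three by more than Dixon's critical value for 4 samples. This was Irgm2 in si-control replicate 1, whose gap to the next library was 0.83 of the group's range, at 68.2 CPM against 63.1 to 64.0 CPM. For independent values from a normal distribution, chance gives about 1 in 20 such groups. The libraries here fall into replicate sets, so that rate need not hold for them.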

How the results depend on the processing

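The rise of all 9 members with IFN and with TNF + IFN was called under either siRNA with every alternative run. The replicate set mattered most elsewhere. The siRNA comparisons called 23.8% to 26.1% of all genes in replicates 1 and 2 and 36.2% to 38.5% in replicates 3 and 4. Replicates 1 and 2 alone called 9 members for the siRNA without cytokine, 2 with TNF, 4 with IFN, 2 with TNF + IFN, 1 and 2 for TNF + IFN against IFN in si-control and si-dnmt, 8 for the TNF-by-IFN term in si-dnmt, and 9 each for the siRNA-by-TNF, siRNA-by-IFN, siRNA-by-TNF + IFN and three-way terms. Replicates 3 and 4 alone called 4 with TNF, 6 with IFN (5 lower, 1 higher), 3 with TNF + IFN (2 lower, 1 higher), 2 and 4 for TNF + IFN against IFN (higher, while the 1 call in replicates 1 and 2 in si-control was lower), 9 for the TNF-by-IFN term in si-dnmt, 2 for siRNA-by-TNF and 4 for siRNA-by-IFN, and gave a linear ratio of 0.993 in si-control. The replicate block called 8, 2 and 1 members for the siRNA without cytokine, with TNF and with TNF + IFN, 2 for TNF + IFN against IFN in si-dnmt, 5 for the TNF-by-IFN term in si-dnmt, and 2, 4 and 4 for the siRNA terms with TNF, IFN and TNF + IFN. The shares of all genes under the block stand with each of these comparisons above. The block changed the count of calls for no other comparison by over 1.5 times. DESeq2 called 1 for the siRNA with TNF + IFN (19.8% of all genes in either direction), 1 for siRNA-by-TNF (0.347%) and 2 for siRNA-by-IFN (0.21%). Without the filter siRNA-by-IFN had 2 calls. Fitting groups alone gave 1 call for the siRNA with TNF + IFN, 1 for TNF + IFN against IFN in si-dnmt, 0 for siRNA-by-IFN and 1 for siRNA-by-TNF + IFN. Leaving out 1 library gave 2 to 4 calls for the siRNA without cytokine, 1 to 2 for siRNA-by-IFN and 1 to 2 for siRNA-by-TNF + IFN. Shares of all genes are not given here for the fits without the filter, of groups alone or with 1 library left out.

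These directions turned. In replicates 3 and 4 alone the siRNA without cytokine gave −0.19 for Igtp, −0.18 for Iigp1, −0.090 for Tgtp1 and −0.037 for Tgtp2, with TNF 0.20 for Tgtp1, with TNF + IFN −0.015 for Irgm1, and the siRNA-by-IFN term was 0.064 for Irgm1 and 0.24 for Ifi47 and the siRNA-by-TNF + IFN term 0.37 for Ifi47. In replicates 1 and 2 alone the siRNA gave −0.013 for Irgm1 with IFN and 0.018 for Gm12250 with TNF + IFN, and the block gave 0.014 for Tgtp1 with TNF. Leaving out 1 library, the siRNA with TNF ranged from −0.39 to 0.092 for Igtp, −0.20 to 0.25 for Iigp1, −0.070 to 0.22 for Irgm1, −0.30 to 0.36 for Tgtp1 and −0.36 to 0.24 for Tgtp2, with IFN from −0.084 to 0.18 for Irgm1 and −0.024 to 0.31 for Gm4951, and with TNF + IFN from −0.12 to 0.065 for Gm12250. The causes were not tested. The 6 to 39 counts of Gm12250 per library in si-control without cytokine limit the precision of its folds.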
